A study of Mus musculus with 9 samples.

Results

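A set of 10 genes of glycan sulfation was followed in mouse lumbar dorsal root ganglia, which hold the cell bodies of sensory neurons and lie along the lower spine. They are 8 carbohydrate sulfotransferase genes (Chst1, Chst2, Chst3, Chst7, Chst8, Chst10, Chst11 and Chst12) and 2 genes whose products carry a WSC domain beside a sulfotransferase domain (Wscd1 and Wscd2). The 10 were taken by symbol from 55536 genes counted, and all 10 passed the filter on low counts that left 17258 genes. They were selected on their icKO and control CPM (counts scaled to a common library total), which were known when the list was drawn up. Their differences between these groups are therefore given as a description, without a test.

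The icKO group held 5 libraries from adult C57Bl6 mice with an inducible conditional knock-out of Prdm12, a zinc finger regulator known for its role in pain-sensing neurons. The control group held 4 libraries from adult C57Bl6 mice labelled wild type, and the ganglia were taken 1 month after tamoxifen. The labels name neither the promoter driving the recombinase nor the deleted exon, and do not say whether controls carried any of the same alleles. Loss of Prdm12 and any other difference between the genotypes cannot be told apart. Separate animals are not stated for the replicates, and p-values then reflect library-to-library spread that may be technical.

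Carbohydrate sulfotransferases are enzymes of the Golgi apparatus. They move a sulfate group from the donor PAPS onto sugars of glycoproteins, glycolipids and proteoglycans. The position of the sulfate decides which proteins can bind the chain. Chondroitin sulfate is known in nervous tissue as a component of the matrix around neurons, and keratan sulfate as a chain of galactose and N-acetylglucosamine carried by a small set of core proteins. The HNK-1 epitope, a sulfated glucuronic acid, is carried by adhesion molecules of neurons and Schwann cells.

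Upstream sequences are shown for Chst1 and Wscd1, the members with the largest differences downward and upward, and for Chst2, the close relative of Chst1. Each run is 250 bases long, 5′ to 3′ on the strand of the gene, ending just before a RefSeq start on GRCm38.p6, the mm10 build. Capitals mark CG dinucleotides. The windows are chr2:92600867-92601116 on the plus strand for Chst1, chr11:71750435-71750684 on the plus strand for Wscd1 and chr9:95407271-95407520 on the minus strand for Chst2.
Chst1: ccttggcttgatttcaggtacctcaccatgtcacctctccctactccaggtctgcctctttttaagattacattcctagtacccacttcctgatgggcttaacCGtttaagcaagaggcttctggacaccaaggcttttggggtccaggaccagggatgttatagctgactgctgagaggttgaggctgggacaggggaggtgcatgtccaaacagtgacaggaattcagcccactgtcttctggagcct
Wscd1: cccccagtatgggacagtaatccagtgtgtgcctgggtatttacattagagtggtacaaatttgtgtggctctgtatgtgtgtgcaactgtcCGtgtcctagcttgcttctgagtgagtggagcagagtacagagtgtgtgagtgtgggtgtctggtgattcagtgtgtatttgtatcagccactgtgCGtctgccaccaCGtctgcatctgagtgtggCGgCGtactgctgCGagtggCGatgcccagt
Chst2: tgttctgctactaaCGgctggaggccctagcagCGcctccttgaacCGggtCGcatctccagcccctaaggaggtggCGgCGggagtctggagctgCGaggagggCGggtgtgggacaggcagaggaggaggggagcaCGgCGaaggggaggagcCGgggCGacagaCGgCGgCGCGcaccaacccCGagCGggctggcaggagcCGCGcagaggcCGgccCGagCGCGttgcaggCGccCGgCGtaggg

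The run upstream of Chst1 held 1 CG, that of Wscd1 held 7 and that of Chst2 held 27. Over the full RefSeq windows of 300 bases, 9 of the 10 genes had an entry, with 11 starts in all. The Chst1 window was 52.67% G and C with 1 CG, against a median of 52.67% and 7 CG over 32851 windows. The other windows held 10 to 38 CG, with 10 in each of the pair of upstream Wscd1 starts, 36 at the downstream Wscd1 start and 38 at Chst8. The GC box GGGCGG, searched on both strands, was found for 6 of the 9 genes (Chst2, Chst3, Chst7, Chst8, Chst11 and Chst12) and in 35.7% of all windows. TATAAA, searched likewise, was found for 0 of the 9 and in 13.6% of all windows. The RefSeq start of Chst1 lies 1410 bases from the GENCODE M21 start, so that its window falls inside the GENCODE gene. That of Chst2 lies 548 bases from the GENCODE start. No data here say which start is used.

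Library totals were 23878297 to 29481589 counts in icKO and 19607740 to 27970469 counts in control. Prdm12 was checked first, at 22.3 to 26.2 CPM in the 5 icKO libraries and 116 to 163 CPM in the 4 control libraries, so that the labels and the targeted transcript match in every library. The antisense gene Gm13425 overlaps exons of Prdm12, and reads of the pair cannot be told apart here. Neuron markers (8 of 8 tested, 0 past the threshold) summed to 11281 to 12790 CPM in icKO and 10827 to 12484 CPM in control. Each marker of neurons and of satellite glia passed the filter on low counts. Satellite glia markers (6 genes) summed to 3938 to 4720 CPM in icKO and 3637 to 4889 CPM in control, fibroblast and meninges markers (6 genes) to 748 to 1805 CPM in icKO and 585 to 1288 CPM in control. Sums overlapped between the groups for these lists and for myelinating Schwann cells, vessel cells, macrophages, skeletal muscle and erythroid cells. Spinal cord markers (6 genes) summed to 21.4 to 27.98 CPM in icKO and 20.2 to 22.9 CPM in 3 control libraries, with control 4 at 81.7 CPM. Y-linked counts were at 98.5 to 166 CPM in 4 libraries (2 icKO, 2 control). The other 5 (3 icKO, 2 control) were at 0.105 to 3.64 CPM. Of these, icKO 4 was highest at 3.64 CPM, and control 4 followed at 0.663 CPM. The labels give no sex.

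Across all 17258 genes, 147 had a Benjamini-Hochberg adjusted p under 0.05 by the quasi-likelihood test of edgeR. That is a background of 0.852%, with 0.475% of genes higher and 0.377% lower in icKO. Among the 10 genes 2 were past it, Wscd1 upward and Chst1 downward. Since the list was drawn up from this contrast, nothing is read from that count. The libraries of the groups did not overlap for 4 of the 10 (Chst1, Chst2, Chst8 and Wscd1), against a background of 4.5% (2.16% higher and 2.34% lower in icKO), and nothing is read from this either. The median log2 fold change was -0.16 for the 10 genes and 0.00 for all genes tested, and the median size of the change was 0.22 for the 10 genes and 0.088 for all genes. The choice of the 10 bears on these medians too, and nothing is read from them.

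**Figure D1:**
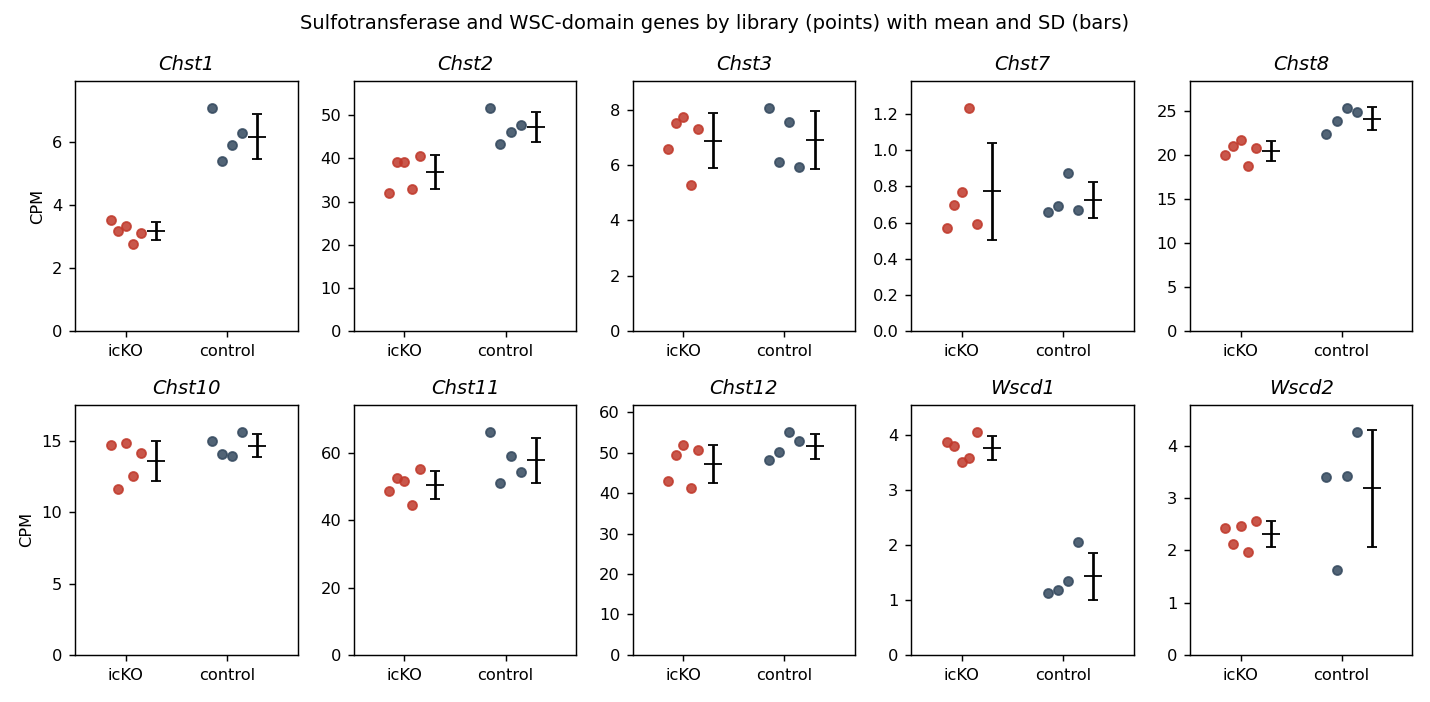
Each panel shows CPM (vertical axis, from 0) of 1 gene in the 5 icKO libraries (red) and the 4 control libraries (blue), with black bars for the mean and SD. Chst1, Chst2 and Chst8 lie lower in every icKO library than in any control library, Wscd1 lies higher in every icKO library, and the points of the other 6 genes overlap.

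Keratan sulfate is sulfated by enzymes of Chst1 and Chst2. Chst1 encodes the galactose 6-O-sulfotransferase that acts on keratan sulfate, and Chst2 an N-acetylglucosamine 6-O-sulfotransferase that acts on keratan sulfate and on ligands of L-selectin. Chst1 was 1.93-fold and Chst2 1.28-fold lower in icKO as fitted, and these differences are a description. In bulk tissue, fewer cells that express a gene and less RNA per cell cannot be told apart.

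Chst1 (ENSMUSG00000027221) is a protein-coding gene with 1 annotated transcript on the plus strand of chromosome 2 (mm10, 92599707 to 92615250). It had 3.53, 3.18, 3.34, 2.76 and 3.12 CPM in icKO libraries 1 to 5, against 7.07, 5.39, 5.90 and 6.29 CPM in control libraries 1 to 4. The highest icKO library, replicate 1, was well below the lowest control library, replicate 2. The means were 3.19 ± 0.289 CPM (SD, n = 5) in icKO and 6.16 ± 0.7099 CPM (SD, n = 4) in control. The fitted log2 fold change was -0.95 (SE 0.12), lower in icKO. Behind these values stand 67 to 105 counts in an icKO library and 122 to 193 counts in a control library. As a difference in mean log2 CPM it was -0.93 in the 4 libraries high in Y-linked counts and -0.91 in the other 5. Without control 4, the library with the high spinal cord markers, the fitted value was -0.94.

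Chst2 (ENSMUSG00000033350, chromosome 9, from 95399292 to 95406722 on the minus strand) had 31.99, 39.2, 39.3, 33.02 and 40.6 CPM in icKO libraries 1 to 5, against 51.7, 43.3, 46.2 and 47.7 CPM in control libraries 1 to 4. The groups did not overlap, but the highest icKO library came within 3 CPM of the lowest control library. The fitted log2 fold change was -0.36 (SE 0.08), not past the threshold across all genes. With DESeq2, an alternative test, and without a filter on low counts Chst2 was past it. Nothing is read from any of these calls. Within the libraries high and low in Y-linked counts the differences in mean log2 CPM were -0.46 and -0.28.

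The ratio of Chst1 to Chst2 counts within a library does not depend on scaling. It was 0.110, 0.0809, 0.0851, 0.0834 and 0.0768 in icKO libraries 1 to 5, against 0.137, 0.124, 0.128 and 0.132 in control libraries 1 to 4. Every icKO library was below every control library, so that Chst1 was lower in icKO relative to Chst2 as well, with icKO 1 nearest to the controls.

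Wscd1 and Wscd2 encode related membrane proteins, each with WSC domains and a sulfotransferase domain. Of the 10 genes, Wscd1 had the largest difference, and it was higher in every icKO library. Wscd2 had similarly few counts, and its icKO values lay inside the control range.

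Wscd1 (ENSMUSG00000020811) is annotated with 6 transcripts on the plus strand of chromosome 11 (71749920 to 71789647). It had 3.87, 3.80, 3.52, 3.58 and 4.07 CPM in icKO libraries 1 to 5, against 1.14, 1.18, 1.35 and 2.06 CPM in control libraries 1 to 4. The icKO libraries lay close together, and control 4 stood above the other controls but below every icKO library. The means were 3.77 ± 0.223 CPM (SD, n = 5) in icKO and 1.43 ± 0.429 CPM (SD, n = 4) in control. The fitted log2 fold change was 1.41 (SE 0.17), or 2.66-fold higher in icKO, from 87 to 115 counts in an icKO library and 29 to 40 counts in a control library. Without control 4 it was 1.62. The part of spinal cord tissue in the value of control 4 was not tested. The difference in mean log2 CPM was 1.57 among libraries with high Y-linked counts and 1.21 among those with low counts.

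Wscd2 (ENSMUSG00000063430, chromosome 5, from 113490333 to 113589725 on the plus strand) had 2.42, 2.13, 2.47, 1.97 and 2.57 CPM in icKO libraries 1 to 5, against 3.41, 1.63, 3.43 and 4.28 CPM in control libraries 1 to 4. Control 2 was below all icKO libraries and the other 3 controls were above them. The fitted log2 fold change was -0.45 (SE 0.22), between -0.67 without control 2 and -0.29 without control 4, and by Y-linked counts the differences were -0.57 (high) and -0.19 (low). With a coefficient of variation of 34.9% in control and 10.8% in icKO, the control libraries alone spread over a wider range than the distance between the group means.

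Within a library, the counts of Wscd1 and Wscd2 stood in opposite order in the groups. Their ratio was 1.60, 1.78, 1.42, 1.81 and 1.58 in icKO libraries 1 to 5, against 0.333, 0.725, 0.394 and 0.482 in control libraries 1 to 4. Wscd1 thus had more counts than Wscd2 in every icKO library and fewer in every control library. The genes differ in exon length, so a ratio of counts is not a ratio of transcripts, but the difference between groups does not depend on length.

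**Figure D2:**
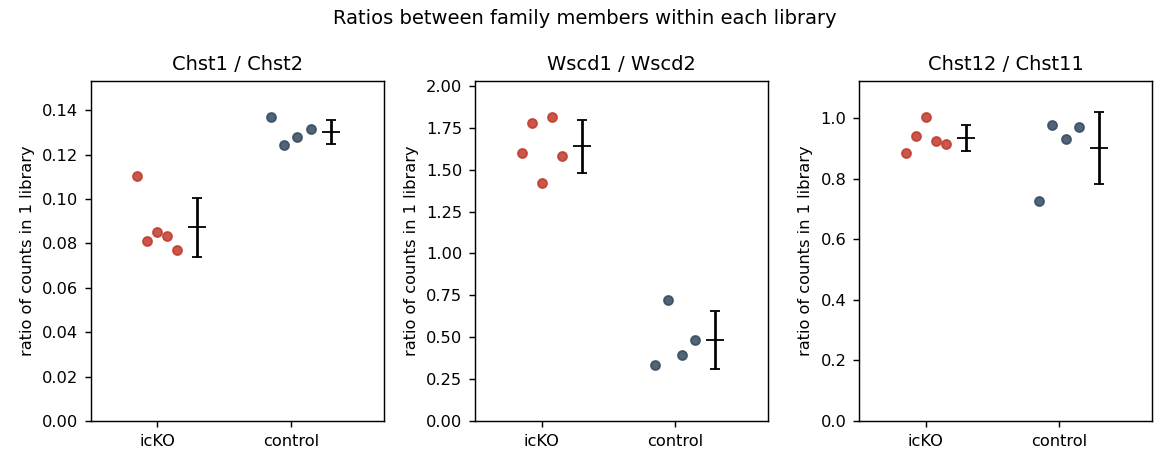
Each point is the ratio of counts of a pair of genes within 1 library (vertical axis, from 0), for icKO (red, 5 libraries) and control (blue, 4 libraries), with mean and SD in black. Chst1 over Chst2 is lower and Wscd1 over Wscd2 higher in every icKO library, while Chst12 over Chst11 overlaps.

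Chondroitin sulfate is modified by Chst11 and Chst12, the chondroitin 4-O-sulfotransferases, and by Chst3 and Chst7, the chondroitin 6-O-sulfotransferases. None of the 4 separated the groups. Chst11 and Chst12 were the members with the most counts, and Chst7, on the X chromosome, was the one with the fewest.

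Chst11 (ENSMUSG00000034612, chromosome 10, from 82985498 to 83195900) had 48.5, 52.6, 51.6, 44.5 and 55.1 CPM in icKO libraries 1 to 5, against 66.3, 51.2, 59.2 and 54.4 CPM in control libraries 1 to 4. The ranges overlapped between 51.2 and 55.1 CPM. Its log2 fold change was -0.19 (SE 0.08), with differences in mean log2 CPM of -0.31 among libraries with high and -0.07 among those with low Y-linked counts. Chst12 (ENSMUSG00000036599, chromosome 5, from 140505550 to 140525724) had 43.1, 49.5, 51.8, 41.2 and 50.5 CPM in icKO libraries 1 to 5, against 48.2, 50.1, 55.2 and 52.8 CPM in control libraries 1 to 4. The upper icKO libraries lay inside the control range, and the log2 fold change was -0.13 (SE 0.07), with -0.16 and -0.11 by Y-linked counts. The ratio of Chst12 to Chst11 counts was 0.935 ± 0.0431 (SD, n = 5) in icKO and 0.903 ± 0.119 (SD, n = 4) in control, with overlapping libraries.

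Chst3 (ENSMUSG00000057337, chromosome 10, from 60181532 to 60219260) had 6.59, 7.51, 7.73, 5.26 and 7.30 CPM in icKO libraries 1 to 5, against 8.06, 6.12, 7.54 and 5.93 CPM in control libraries 1 to 4. Low and high libraries occurred in both groups. The log2 fold change was -0.01 (SE 0.14), and an interval of 2 SE on either side ran from -0.28 to 0.26. Chst7 (ENSMUSG00000037347, chromosome X, from 20059560 to 20097521) had 0.572, 0.697, 0.766, 1.23 and 0.592 CPM in icKO libraries 1 to 5, against 0.660, 0.694, 0.875 and 0.670 CPM in control libraries 1 to 4. It had 15 to 30 counts in an icKO library and 13 to 24 counts in a control library. The interval of 2 SE around its log2 fold change of 0.08 ran from -0.44 to 0.59. Differences inside that interval are not excluded at this depth. Without icKO 4, the highest library of Chst7, the log2 fold change was -0.15. For Chst3 and Chst7 the difference in mean log2 CPM was negative among libraries with high Y-linked counts (-0.15 and -0.24) and positive among those with low counts (0.15 and 0.25).

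The summed counts of the 4-O-sulfotransferase genes Chst11 and Chst12 were also divided by those of the 6-O-sulfotransferase genes Chst3 and Chst7. Exon lengths differ, so this is a ratio of counts and not of transcripts. The ratio was 12.8, 12.4, 12.2, 13.2 and 13.4 in icKO libraries 1 to 5, against 13.1, 14.9, 13.6 and 16.3 in control libraries 1 to 4. The means were 12.8 ± 0.506 (SD, n = 5) in icKO and 14.5 ± 1.40 (SD, n = 4) in control, and control 1 lay inside the icKO range.

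Chst8 and Chst10 act on the ends of glycoprotein glycans. Chst8 encodes a sulfotransferase that adds sulfate to terminal N-acetylgalactosamine and is known for its work on pituitary hormones, and Chst10 encodes the HNK-1 sulfotransferase. Chst8 (ENSMUSG00000060402, chromosome 7, from 34674468 to 34812711 on the minus strand) had 20.1, 21.03, 21.8, 18.8 and 20.9 CPM in icKO libraries 1 to 5, against 22.5, 23.9, 25.4 and 24.9 CPM in control libraries 1 to 4. The groups lay side by side without overlap, less than 1 CPM apart at the nearest libraries. Its coefficient of variation, 5.46% in icKO and 5.37% in control, was the smallest of the 10 genes in each group. The log2 fold change was -0.24 (SE 0.07), not past the threshold across all genes, with -0.22 and -0.25 among libraries with high and with low Y-linked counts. Chst10 (ENSMUSG00000026080, chromosome 1, from 38863867 to 38898161 on the minus strand) had 14.7, 11.7, 14.8, 12.5 and 14.1 CPM in icKO libraries 1 to 5, against 15.03, 14.1, 13.9 and 15.7 CPM in control libraries 1 to 4. Its libraries overlapped, and the log2 fold change was -0.11 (SE 0.09), with -0.14 and -0.11 by Y-linked counts.

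**Figure D3:**
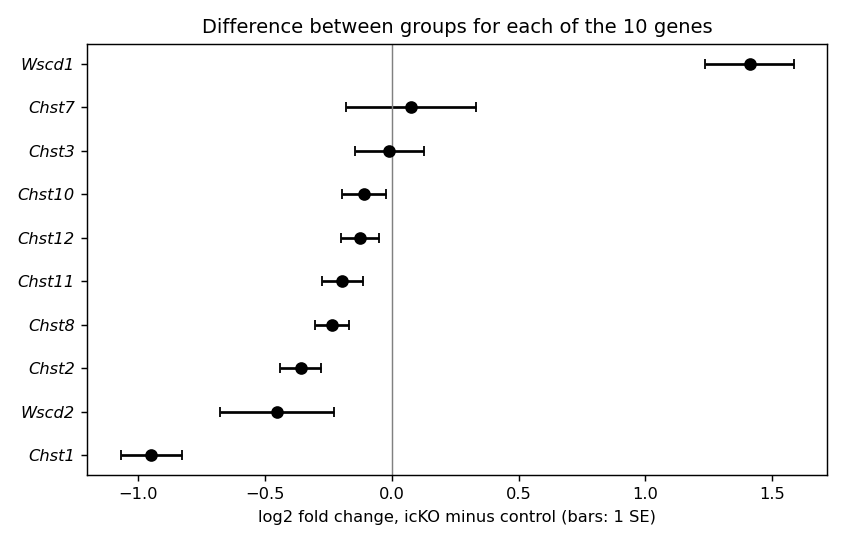
Points show the fitted log2 fold change (icKO minus control, horizontal axis) of each of the 10 genes and bars 1 SE either side. Wscd1 stands at 1.41 and Chst1 at -0.95, while the other 8 lie between -0.45 and 0.08.

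Levels within the control libraries alone do not involve the contrast between icKO and control. Per kilobase of exon, Chst12 was the most abundant of the 10 in control ganglia, at 21.8 ± 1.30 CPM per kilobase (SD, n = 4). Chst11 followed at 10.4 ± 1.19, Chst2 at 6.45 ± 0.478, Chst8 at 4.05 ± 0.218 and Chst1 at 2.30 ± 0.265 CPM per kilobase. Each of these neighbours in the order was separated from the next without overlap of the 4 libraries. Chst10 at 1.23 ± 0.0685 and Chst3 at 1.06 ± 0.162 CPM per kilobase overlapped, as did Wscd1 at 0.334 ± 0.100 and Chst7 at 0.328 ± 0.0458. Wscd2, at 0.208 ± 0.0725 CPM per kilobase, overlapped Wscd1 and lay just below Chst7. The order is given as a description, without a test. The order depends on the length used: with the longest transcript in place of all exons 7 of the 10 genes had another rank, Chst8 (7.61) stood above Chst2 (6.45 CPM per kilobase) and Chst10 (2.66) above Chst1 (2.30).

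In icKO ganglia Chst1 had 1.19 ± 0.108 CPM per kilobase of exon (SD, n = 5) and overlapped Chst10 at 1.13 ± 0.118 and Chst3 at 1.06 ± 0.154. Wscd1 had 0.878 ± 0.0521 CPM per kilobase and overlapped Chst3, whereas in control ganglia it overlapped Chst7. Chst12, Chst11, Chst2 and Chst8 had the same order in icKO as in control.

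**Figure D4:**
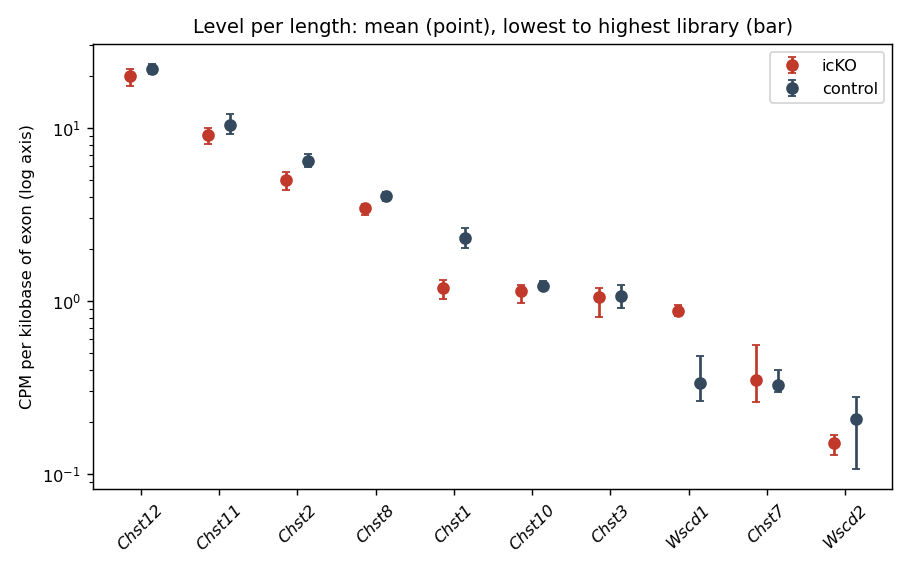
Points are mean CPM per kilobase of exon (vertical log axis) in icKO (red, 5 libraries) and control (blue, 4 libraries), with bars from the lowest to the highest library, and genes ordered by their control mean. From Chst12 to Wscd2 the control means run from 21.8 to 0.208, and Chst1 and Wscd1 are the genes whose bars are far apart.

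Genes whose log2 CPM followed Chst1 and Wscd1 over the 9 libraries were looked up among 13691 protein-coding genes with a mean of at least 1 CPM. These points share the contrast between the groups, so the likeness is a description. For Chst1 the nearest were Macrod2 (Pearson's r 0.977), Bag2 (0.971) and Galnt5 (0.967), a gene of mucin-type O-glycosylation. In icKO and control, Macrod2 averaged 56.5 and 64.5 CPM, Bag2 22.5 and 30.9 CPM, and Galnt5 32.1 and 42.04 CPM. For Wscd1 they were Runx1t1 (0.989), a transcriptional corepressor gene, Isoc1 (0.986) and St6galnac5 (0.975), a sialyltransferase gene. Runx1t1 averaged 30.5 CPM in icKO and 22.8 CPM in control, and Isoc1 averaged 107.6 and 72.95 CPM. St6galnac5 averaged 53.2 CPM in icKO and 31.4 CPM in control.

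Whether the rest of the sulfation pathway differed was asked with 87 genes in 7 lists, of which 81 were tested. Of these, 2 rose, 1 fell and 78 did not pass edgeR's quasi-likelihood test over all genes, against the background of 0.852% called. These lists too were drawn up with earlier results of these data known. Nothing is therefore read from the count of calls against that background. The median log2 fold change of the 81 was -0.04. At an unadjusted p under 0.05, 5 were higher and 8 lower, where 11.1% of all genes tested had such a p in either direction.

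Among 24 tested genes of other carbohydrate and protein-tyrosine sulfotransferases, 1 rose and 1 fell. Both encode N-deacetylase/N-sulfotransferases, which start the sulfation of heparan sulfate. Ndst3 rose, with 40.1 ± 2.59 CPM (SD, n = 5) in icKO and 32.3 ± 1.18 CPM (SD, n = 4) in control, which is 0.31 on the log2 scale (SE 0.06; adjusted p = 0.0299, quasi-likelihood test of edgeR). Ndst4 fell, with 62.6 ± 5.97 CPM in icKO and 79.7 ± 3.93 CPM in control, which is -0.35 on the log2 scale (SE 0.07; adjusted p = 0.0388, same test). The groups did not overlap for either gene, and within the libraries high and low in Y-linked counts the differences were 0.28 and 0.34 for Ndst3 and -0.30 and -0.38 for Ndst4. Ndst3 lost its call without icKO 1, 4 or 5 or control 1, 2 or 3 (highest adjusted p among these 0.0951), and Ndst4 without icKO 2, 3, 4 or 5 or control 1, 3 or 4 (highest among these 0.145). The relatives Ndst1 at 0.07 (SE 0.09, adjusted p = 0.848) and Ndst2 at -0.08 (SE 0.08, adjusted p = 0.79), named after their values were seen, did not pass. Ust, the uronyl 2-O-sulfotransferase gene of chondroitin and dermatan sulfate, was at -0.38 (SE 0.09, adjusted p = 0.0863). Hs2st1, its counterpart for heparan sulfate, was at 0.23 (SE 0.06, adjusted p = 0.144). Of the 4 genes not tested, Chst4 and Chst13 belong to the Chst family.

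Of 11 sulfatase genes 1 rose and 10 did not pass. Sulf1 rose; its product removes 6-O-sulfates from heparan sulfate outside the cell. It had 66.03 ± 6.22 CPM (SD, n = 5) in icKO and 47.3 ± 2.69 CPM (SD, n = 4) in control. On the log2 scale this was 0.48 (SE 0.07; adjusted p = 0.00576, quasi-likelihood test of edgeR), and the call held without any single library (highest adjusted p 0.0228). The differences in mean log2 CPM were 0.40 and 0.54 among libraries with high and with low Y-linked counts. Arsb, which removes 4-O-sulfate from chondroitin and dermatan sulfate in lysosomes, was at -0.26 (SE 0.10, adjusted p = 0.312), and Sulf2 was at -0.21 (SE 0.09, adjusted p = 0.375).

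The other lists gave no call by edgeR's quasi-likelihood test. None of 8 genes of sulfate donor supply had an unadjusted p under 0.05, with Papss1, a PAPS synthase gene, at 0.05 (SE 0.05, adjusted p = 0.83) and Impad1, which breaks down the spent donor, at 0.04 (SE 0.05, adjusted p = 0.869). None of 14 genes of chondroitin and dermatan chain synthesis had an unadjusted p under 0.05 either, with Csgalnact1 at -0.14 (SE 0.07, adjusted p = 0.513) and Chpf2 at -0.19 (SE 0.10, adjusted p = 0.518). By DESeq2, 0 genes of these lists passed as well.

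Of 7 tested genes for keratan sulfate and HNK-1 chains 0 passed with edgeR and 2 were lower at an unadjusted p under 0.05. These were the sialyltransferase genes St3gal1 at -0.43 (SE 0.12, adjusted p = 0.128) and St3gal2 at -0.32 (SE 0.10, adjusted p = 0.201), and DESeq2 called St3gal1 (adjusted p = 0.0293). Of 14 core protein genes 0 passed with edgeR or DESeq2 and 2 were lower at an unadjusted p under 0.05, namely Acan for aggrecan at -0.56 (SE 0.20, adjusted p = 0.284) and Ncan for neurocan at -0.32 (SE 0.12, adjusted p = 0.333). Of the other genes with a WSC domain, Kremen2 at -0.46 (SE 0.36, adjusted p = 0.716) and Pkd1 at -0.04 (SE 0.07, adjusted p = 0.883) did not pass, and 0 of 3 had an unadjusted p under 0.05. Kremen2 had few counts, at 0.194 to 0.627 CPM in icKO and 0.437 to 0.618 CPM in control. DESeq2 gave it no adjusted p, and called 0 genes of this list.

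**Figure D5:**
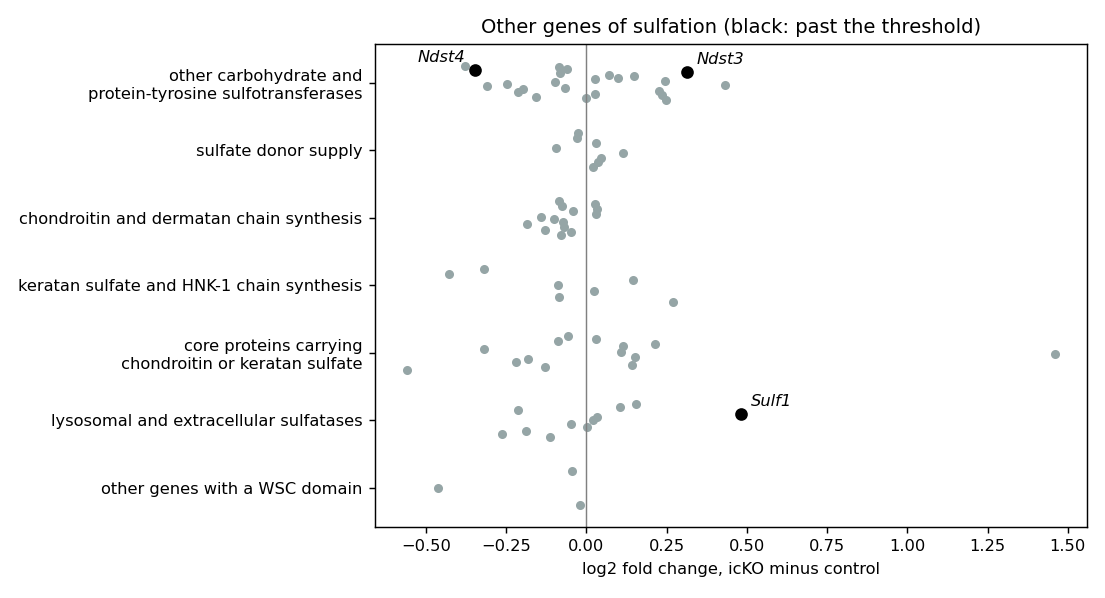
Each point is 1 of the 81 tested genes of the sulfation lists, by list (vertical axis) and log2 fold change, icKO minus control (horizontal axis). Black points mark the genes past the threshold, Ndst3 at 0.31, Ndst4 at -0.35 and Sulf1 at 0.48.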

How the data were processed

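Messenger RNA of 9 libraries (5 icKO, 4 control) was analysed from the deposited raw counts per Ensembl gene. Per the submitters' processing notes, the tools were featureCounts 1.5.0-p1, STAR 2.5.2a and bcl2fastq 2.20.0.422, and the build mm10. Not given in the sources used here were the annotation release, strand setting and treatment of multi-mapped reads. All 55536 identifiers were found in GENCODE M21, from which symbols, positions and exon lengths were taken. Exons of the 10 genes shared no base with another annotated gene.

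Genes were kept by filterByExpr (minimum count 10, minimum total count 15), scaled with TMM factors and compared with edgeR 4.0.16 (quasi-likelihood test, trended dispersion, R 4.3.3), with Benjamini-Hochberg adjustment over 17258 genes. The SE was obtained from each log2 fold change and its F statistic (absolute change over root F). CPM uses TMM-scaled library sizes (marker sums use plain totals), and log2 CPM a prior count of 2. Groups came from titles. Totals were 19607740 to 29481589 counts, so 3 counts equalled 0.102 to 0.153 CPM. Replicates differed by more than sampling noise (chi-square per degree of freedom 6.07 to 23.5). The test was also run on simulated data, and no result of that run is used here. Proteins were not analysed here.

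The 10 genes and all lists were chosen with earlier results of these data known. Named were the 10 genes, Prdm12, every related gene past the threshold plus up to 2 per list with the smallest adjusted p, and the 3 genes most like Chst1 and Wscd1. Alternatives were RLE factors, library size alone, no filter, at least 1 CPM in at least 4 libraries, DESeq2 1.42.0, robust dispersion, a replicate block, a covariate of Y-linked counts, and each library left out.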

Additional observations from a re-analysis of the deposited data

Results flagged for a closer look

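Over 68 groups of 4 or 5 libraries (each named gene in icKO and in control), 4 held a library far from the others, where chance flags about 1 group in 20. Chst7 in control 3 was at 0.875 CPM, above the other controls at 0.660 to 0.694 CPM, on 24 counts. Papss1 in icKO 4 was at 71.1 CPM, below the other icKO libraries at 78.2 to 80.5 CPM. Impad1 in icKO 2 was at 113 CPM, above the other icKO libraries at 103 to 105 CPM. Macrod2 in control 2 was at 61.9 CPM, below the other controls at 65.1 to 65.4 CPM.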

How the results depend on the processing

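As a description, the log2 fold change of Chst1 ran from -1.01 to -0.88 and that of Wscd1 from 1.31 to 1.62 over the alternatives. Sulf1 and Prdm12 were past the threshold in all 17 alternatives each. In the values of the 10 genes, 169 of 169 moved by less than the spread between replicates. Without a filter 172 genes were higher and 221 lower, and 2 related genes were lower (Ust, adjusted p = 0.0105). DESeq2 called 196 higher, 229 lower and 3 related genes lower, 1 of them a keratan sulfate gene. Same-numbered libraries did not deviate together (correlations 0.10, -0.18, -0.04 and 0.17), so the numbers do not pair them. A replicate block left 28 higher and 20 lower genes and, of the related genes, 1 higher and 0 lower, with 0 other sulfotransferases called (adjusted p = 0.161 for Ndst3 and 0.155 for Ndst4); the cause was not tested. With 1 library left out, 45 to 85 genes were higher and 33 to 90 lower (45 higher without icKO 1; 33 to 43 lower without icKO 1, 3, 4 or 5 or control 1 or 3), related genes numbered 1 to 2 higher and 0 to 2 lower, with 0 to 2 among other sulfotransferases and 0 to 1 for keratan sulfate, and Pkd1 ranged from -0.10 to 0.0099, positive without control 3. Ranks of the 10 genes by length changed for 7 with the longest transcript and for 0 to 2 with 1 control library left out (2 without control 4). The at least 1 CPM filter removed Chst7 and Kremen2, which got no value there. Counting error limits Chst7, Wscd1 and Wscd2, with at most 115 counts in any library. It bears on Chst1 as well, at 67 to 105 counts in an icKO library and 122 to 193 in a control library.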
